A study of Mus musculus with 20 samples.

Results

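The mevalonate arm of cholesterol synthesis is followed here through 8 of its enzymes, Acat2, Hmgcs1, Mvk, Pmvk, Mvd, Idi1, Fdps and Ggps1, in the livers of 20 mice. They were matched by symbol in the table of raw read counts, which lists 55487 gene identifiers, and each symbol matched 1 protein coding gene. All 8 passed the filter on low counts in each of the 8 comparisons made.

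The livers came from female C57BL/6J mice, 28 weeks old, and each library holds the RNA of 1 mouse. Chow-fed mice (n = 5) received standard chow throughout. The other mice were first made obese on a high-fat diet (HFD) and then moved to an HFD of matched energy whose protein was part casein and part fishmeal from salmon by-products (n = 5), salmon filet (n = 6) or beef entrecote (n = 4). These HFDs differed in more than protein source. By the paper's composition of the diets, the fishmeal diet held more cholesterol and more soybean oil than the salmon filet and beef diets. No mouse carried a deletion or transgene that the labels name. Liver pieces were sequenced whole, so fewer cells of a type and less RNA per cell cannot be told apart.

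The label of mouse 31 gives salmon filet, while the column with its counts is named for beef. It was kept as salmon filet, after its label, and the study describes groups of equal size, which it would give as beef. Calls, counts without overlap and correlations that involve salmon filet or beef are therefore also given with it as beef, while ranges and medians of these 2 diets are given by label, and the values of mouse 31 itself were 50.45 CPM for Acat2, 928 for Hmgcs1, 12.4 for Mvk, 45.6 for Pmvk, 19.7 for Mvd, 122 for Idi1, 16.1 for Fdps and 14.2 for Ggps1. HFD against chow, fishmeal against chow, and fishmeal against salmon filet and beef together do not depend on this choice.

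Cells build cholesterol and other isoprenoids from acetyl-CoA. Acetyl-CoA units are joined to HMG-CoA, which is reduced to mevalonate, and mevalonate is phosphorylated, decarboxylated and joined into farnesyl diphosphate, the branch point to sterols, ubiquinone, dolichol and prenylated proteins. The liver is a main site of this synthesis, and many of its genes are switched on together by the transcription factor SREBP-2 when sterols in the cell are low. The enzymes are described in the order of the steps, and a change from step to step is the change of a later enzyme relative to an earlier one.

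Promoter sequences are shown first, because 7 of the 8 enzymes were called lower in fishmeal against chow, where 1.93% of 16471 genes were. Ggps1 was called in none of the 8 comparisons. RefSeq entries on GRCm38.p6, from 250 bases before to 50 bases after a start site, were found for 7 of the 8 members, all but Fdps, with 8 entries in all since Pmvk has 2. Counts of promoters below are of these 8 entries, so they leave out Fdps. The 4 motifs described next were searched on both strands. The letters TCACNCCAC, an SREBP-like sterol element, were in 1 of the 8 member promoters, that of Hmgcs1, and in 1.24% of 32851 promoters. The shorter letters CACCCCA, which overlap with it, were in 2 of 8 (Hmgcs1 and Acat2) against 7.62%. CCAAT, the letters bound by NF-Y, were in 6 of 8 against 37.4%, and GGGCGG, the letters bound by Sp1, were in 5 of 8 against 35.7%. The 250 bases before the start site are printed for Hmgcs1 as the promoter with the sterol letters, for Mvd as a strongly lowered enzyme without them, and for Ggps1 as the enzyme with no call. Capitals mark TCACNCCAC and CCAAT on either strand, and each sequence runs 5′ to 3′ on the strand of its gene.
Hmgcs1, chr13:119690101-119690350, plus strand: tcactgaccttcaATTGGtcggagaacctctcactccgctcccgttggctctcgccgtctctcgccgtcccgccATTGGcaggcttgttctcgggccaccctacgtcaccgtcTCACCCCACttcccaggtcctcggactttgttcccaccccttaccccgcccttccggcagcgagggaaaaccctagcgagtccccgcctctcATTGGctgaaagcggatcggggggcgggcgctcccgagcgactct
Mvd, chr8:122443423-122443672, minus strand: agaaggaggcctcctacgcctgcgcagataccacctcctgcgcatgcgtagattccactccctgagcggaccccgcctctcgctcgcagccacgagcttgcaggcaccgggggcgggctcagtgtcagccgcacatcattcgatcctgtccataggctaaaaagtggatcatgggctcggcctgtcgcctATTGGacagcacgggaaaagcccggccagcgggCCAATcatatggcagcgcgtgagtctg
Ggps1, chr13:14063489-14063738, minus strand: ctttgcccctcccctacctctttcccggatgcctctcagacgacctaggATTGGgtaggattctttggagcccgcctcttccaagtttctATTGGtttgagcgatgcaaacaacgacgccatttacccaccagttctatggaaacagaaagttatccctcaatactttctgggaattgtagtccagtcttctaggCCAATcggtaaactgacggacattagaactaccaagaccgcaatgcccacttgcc
In Hmgcs1 the sterol letters began 137 bases before the start site. Mvd held CCAAT at 27 and, on the other strand, at 60 bases before the start site, and Ggps1 held it at 55, 160 and 201 bases before the start site. The CCAAT letters were thus in promoters of called enzymes and in that of Ggps1.

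The libraries held 42526234 to 70266136 reads on genes, and protein coding genes took 93.2% to 95.6% of them, apart from 84.3% in beef mouse 35. Hepatocyte markers (Alb, Apoa1, Ttr, Cps1, Fgb and Tat) summed to 89650 to 121300 CPM (reads scaled to the library's total with its TMM factor) in all groups, Kupffer cell markers to 134 to 280, and adipocyte markers to at most 0.122, with Lep at 0 in every library. No pair of libraries of a diet agreed within sampling noise. A gene was called where its p from edgeR's quasi-likelihood test, adjusted by Benjamini-Hochberg across every gene tested, was under 0.05, and log2 fold changes are from that model.

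Per transcript length, Hmgcs1 was the most abundant of the 8 enzymes in every diet. Its level in chow-fed mice was 606 ± 236 TPM (SD, n = 5), and its range lay above that of the next enzyme, Pmvk, in each group. In chow-fed mice Pmvk (166 ± 54.6 TPM), Idi1 (137 ± 59.6), Acat2 (81.9 ± 19.8), Mvd (53.6 ± 29.3), Mvk (19.5 ± 11.3), Fdps (12.1 ± 4.99) and Ggps1 (7.88 ± 0.651) followed, each with a range overlapping that of its neighbour in the order (SD, n = 5). With fishmeal Fdps was the lowest of the 8, at 1.76 ± 0.331 TPM (SD, n = 5), below the range of Ggps1. Reads of Fdps can be shared with copies of it. The 4 processed pseudogenes at least 95% identical to Fdps over at least 500 bases (Gm3571, Gm5873, Gm7979 and Gm8163) held 32.3% to 70.2% of the summed reads of the 5 genes, with group medians of 51.2% for chow, 49.0% for fishmeal, 42.8% for salmon filet and 41.2% for beef. The protein coding gene Gm43738 also shares 1124 exon bases with Fdps on the same strand and had 0 to 3 counts, so how reads of the shared bases were assigned bears on the level and place of Fdps.

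Acat2 (ENSMUSG00000023832, chromosome 17 from 12942890 to 12960747 in GRCm38) joins acetyl-CoA units to acetoacetyl-CoA in the cytosol. Its level was 54.96 to 99.6 CPM in chow-fed mice, 26.9 to 46.3 with fishmeal, 49.4 to 77.1 with salmon filet and 37.3 to 59.8 with beef. The 5 fishmeal mice lay below every chow-fed mouse. The gene shares 97.7% of its bases over 1477 bases with Acat3, which held more reads (7453 to 19778 counts), so reads could have moved between them, and Acat3 itself had a log2 fold change of -0.21 with fishmeal against chow (SE 0.163, adjusted p = 0.586).

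Hmgcs1 (ENSMUSG00000093930, chromosome 13 from 119690379 to 119708260) makes HMG-CoA in the cytosol. Its level was 632 to 1693 CPM in chow-fed mice, 240.0 to 359 with fishmeal, 403 to 1029 with salmon filet and 346 to 715 with beef. Fishmeal mice were again below every chow-fed and every salmon filet mouse, but 1 of them lay above the lowest beef mouse. The antisense gene Gm48342, which overlaps it, had at most 17 counts.

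Mvk (ENSMUSG00000041939, chromosome 5 from 114444269 to 114460591) adds the first phosphate to mevalonate. Chow-fed mice spread widely, from 7.74 CPM in mouse 1 to 39.8 in mouse 5, and fishmeal mice ranged from 5.67 to 9.74, salmon filet mice from 12.4 to 16.9 and beef mice from 7.41 to 20.9. The chow and fishmeal ranges overlapped through chow mouse 1 alone.

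Pmvk (ENSMUSG00000027952, chromosome 3 from 89454541 to 89469013) adds the second phosphate. Values of chow-fed mice are given in the order of mice 1, 2, 5, 7 and 10, those of fishmeal mice in the order of 12, 13, 14, 16 and 20 and those of beef mice in the order of 32, 35, 39 and 40. In chow-fed mice it stood at 89.7, 147, 105, 132 and 70.3 CPM, and with fishmeal at 40.6, 22.6, 14.5, 27.6 and 24.4 CPM. Beef mice had 42.2, 48.3, 41.1 and 43.97 CPM, and salmon filet mice had a lowest value of 45.6 (mouse 31), a median of 68.5 and a highest of 78.1. Pmvk thus formed steps, with chow above beef without overlap and beef above fishmeal without overlap, and mouse 31 lay among the beef mice.

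Mvd (ENSMUSG00000006517, chromosome 8 from 122433601 to 122443422) decarboxylates the product to isopentenyl diphosphate. Chow-fed mice had 15.4, 50.0, 68.0, 36.6 and 21.6 CPM, and fishmeal mice 11.5, 6.75, 2.59, 5.32 and 4.45. Salmon filet mice ranged from 19.7 to 34.3 with a median of 27.4, and beef mice had 15.7, 43.4, 9.61 and 16.3. Only the highest fishmeal mouse, mouse 12, reached into the range of the beef mice.

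Idi1 (ENSMUSG00000058258, chromosome 13 from 8885501 to 8892451) converts isopentenyl to dimethylallyl diphosphate. Chow-fed mice had 117.5, 223, 309, 164 and 111 CPM, and fishmeal mice 28.5, 33.8, 17.6, 27.1 and 17.3. Beef mice had 86.1, 80.98, 45.9 and 42.1, and salmon filet mice ranged from 55.1 to 129.6 with a median of 104. Every fishmeal mouse lay below every other mouse. Pseudogenes Gm13502, 100% identical over 684 bases, and Gm35570, 97.7% over 681 bases, held 3.24% to 6.1% of the summed reads with chow, 9.78% to 19.7% with fishmeal, 3.85% to 9.12% with salmon filet and 5.79% to 10.2% with beef, so that this share was higher with fishmeal than with chow without overlap.

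Fdps (ENSMUSG00000059743, chromosome 3 from 89093588 to 89101959) joins these units to farnesyl diphosphate. Chow-fed mice had 11.7, 25.2, 29.5, 19.9 and 11.6 CPM, and fishmeal mice 3.19, 3.19, 2.40, 3.74 and 2.43. Beef mice fell into a pair at 18.1 and 17.6 (mice 32 and 35) and a pair at 6.99 and 6.97 (mice 39 and 40), and salmon filet mice ranged from 12.2 to 22.3 with a median of 15.6. The fishmeal mice were tight, within 2.40 to 3.74, and lay below all others.

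Ggps1 (ENSMUSG00000021302, chromosome 13 from 14050659 to 14063488) lengthens farnesyl to geranylgeranyl diphosphate, the unit for prenylated proteins, and leads away from sterols. It had 16.0, 14.1, 13.1, 14.7 and 13.9 CPM in chow-fed mice, 11.1, 11.6, 13.1, 14.0 and 12.9 with fishmeal, 14.2, 11.6, 12.6 and 12.5 with beef, and 11.1 to 14.2 with salmon filet. All 4 groups overlapped, and its coefficient of variation over the 20 mice was 10.1%, against 34.7% (Acat2) to 78.1% (Idi1) for the other 7.

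**Figure D1:**
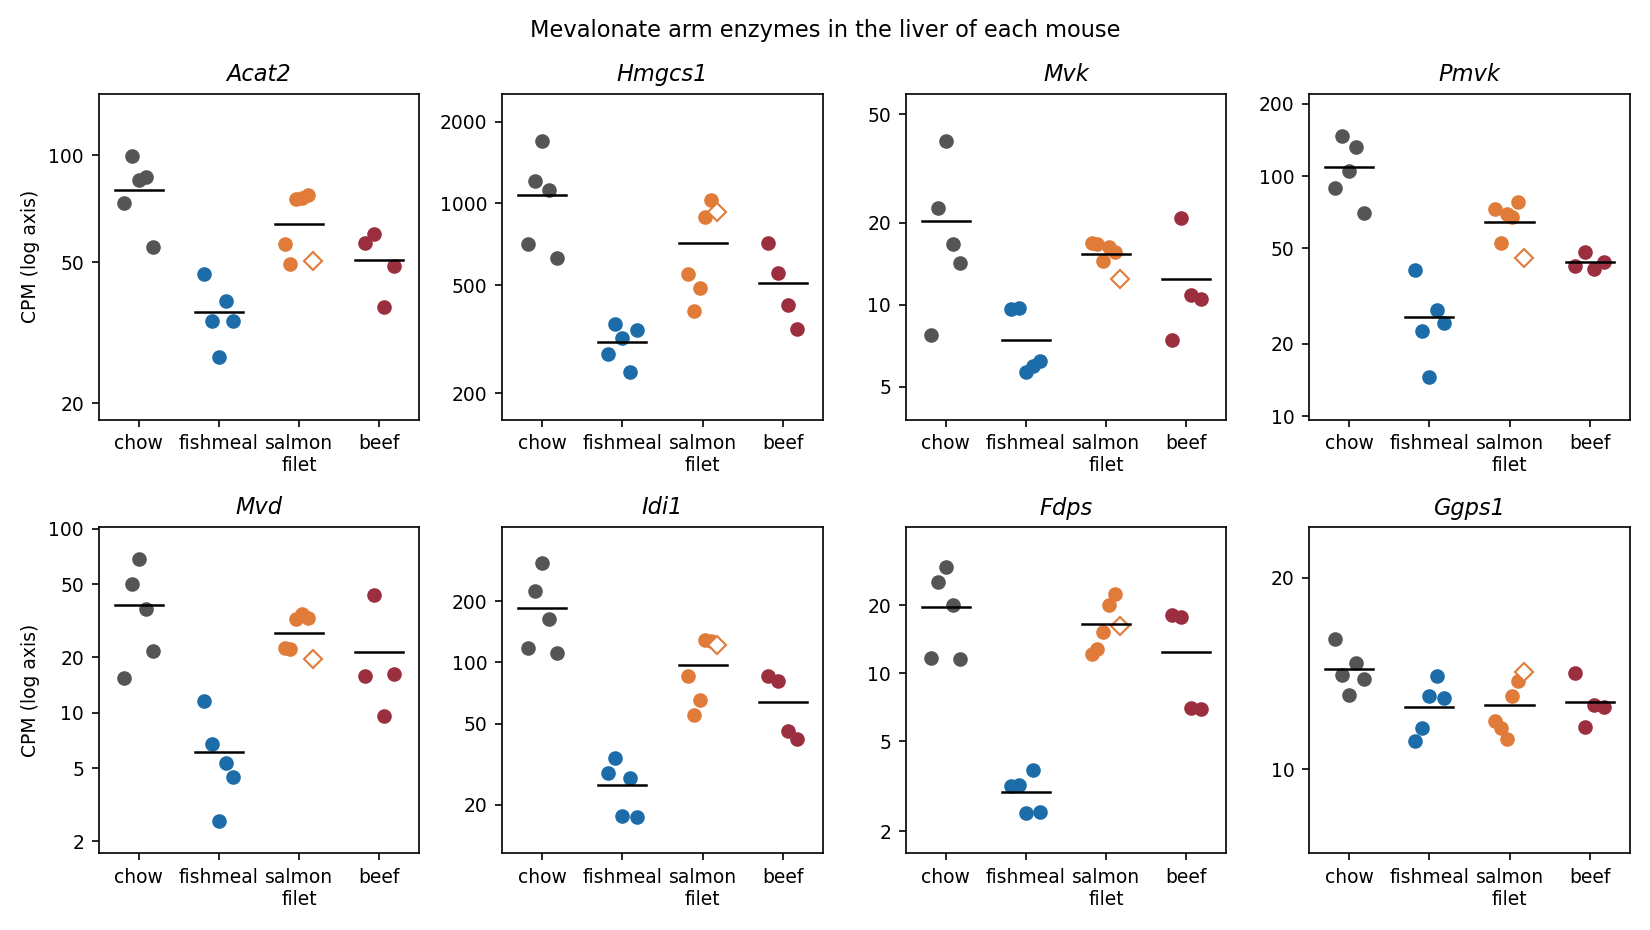
CPM of each enzyme in each mouse (log axis, 1 panel per enzyme with its own scale) for chow (n = 5), fishmeal (n = 5), salmon filet (n = 6) and beef (n = 4). Circles are mice, the open diamond is mouse 31 and black lines are group means, and for Pmvk, Idi1 and Fdps each fishmeal mouse is below each mouse of the other groups, while the groups overlap for Ggps1.

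Whether HFD feeding as a whole changed the arm was asked by setting the 15 HFD-fed mice against the 5 chow-fed mice. All 8 estimates were below 0, and 4 enzymes were called lower, Acat2, Hmgcs1, Pmvk and Idi1, where 5.21% of 17120 genes tested were called lower and 9.75% in either direction. The median log2 fold change of the 8 was -0.94, beside 0.00499 over all genes tested. No enzyme had HFD-fed and chow-fed mice without overlap, beside 0.9% of genes lower without overlap.

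Acat2 was the smallest of the called drops. It stood at 79.96 ± 16.8 CPM with chow (SD, n = 5) and 51.1 ± 15.9 with HFD (SD, n = 15), or -0.65 on the log2 scale (SE 0.194, adjusted p = 0.0359), and its call was lost without any one of 7 mice (chow 1, 2, 5 or 7, fishmeal 13 or 20, or beef 39; highest adjusted p = 0.127). Hmgcs1 fell by 1.03 on the log2 scale (SE 0.287, adjusted p = 0.0241) and Pmvk by 1.24 (SE 0.267, adjusted p = 0.0047). Idi1 had the largest estimate, -1.52 (SE 0.38, adjusted p = 0.0128), with 185 ± 82.7 CPM for chow (SD, n = 5) and 64.3 ± 39.3 for HFD (SD, n = 15). The 4 remaining enzymes were not called. Mvk was at -0.76 (adjusted p = 0.106), Mvd at -1.04 (adjusted p = 0.159) and Fdps at -0.85 (adjusted p = 0.246). Ggps1 was at -0.19 (95% interval -0.33 to -0.04, adjusted p = 0.104).

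These calls leaned on few mice. Without chow mouse 5, the highest in Hmgcs1, Mvk, Mvd, Idi1 and Fdps, Pmvk alone was called, and without chow mouse 2 or chow mouse 7 the calls fell to 2. Clock genes moved with the diets too: 11 of 17 were called, and their first principal component, with 81% of their variance, was 2.33 to 5.503 in chow-fed mice and -6.55 to 3.79 in HFD-fed mice. With this component as a covariate 0 of the 8 enzymes were called in edgeR, where 0.812% of genes were called lower, and 1 had an unadjusted p under 0.05, with log2 fold changes of -1.08 (Mvd) to -0.11 (Ggps1). Of the HFD-fed mice only mouse 31 reached into the chow range of this component, with the next at 2.135 (mouse 22). This fit can therefore hardly separate clock from diet. B cell markers were called lower for 4 of 4 genes (summed CPM 4.52 to 11.1 with chow and 1.59 to 4.51 with HFD), T cell markers for 2 of 5 (2.48 to 4.36 and 1.313 to 3.11) and endothelial markers for 1 of 5, while 1 pancreas marker of the 1 tested and 1 of 3 red cell markers were called higher. The part of these markers in the result was not tested.

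Set against chow one diet at a time, fishmeal gave most of the calls. With fishmeal 7 of the 8 enzymes were called lower, where 1.93% of 16471 genes were called lower and 3.38% in either direction, and 6 of 8 had no overlap with chow-fed mice, beside 2.99% of genes lower without overlap. The log2 fold changes were -1.16 for Acat2 (SE 0.168), -1.81 for Hmgcs1 (SE 0.247), -1.45 for Mvk (SE 0.354) and -2.08 for Pmvk (SE 0.26). From Mvd on they were -2.66 for Mvd (SE 0.441), -2.90 for Idi1 (SE 0.302) and -2.72 for Fdps (SE 0.272), a fitted level 6.32, 7.49 and 6.59 times lower than in chow-fed mice. Adjusted p-values of these 7 ran from 0.000253 (Fdps) to 0.0448 (Mvk), and the call of Mvk was lost without any one of 8 of the 10 mice (chow 2, 5 or 7, or any fishmeal mouse; highest adjusted p = 0.114). Ggps1 was at -0.20 (95% interval -0.42 to 0.01, adjusted p = 0.322), so a fall of more than 0.42 lies outside its interval. In this comparison 6 of 17 clock genes were called, with the component at -5.34 to 1.2 with fishmeal against 2.33 to 5.503 with chow. Of the marker lists, 1 of 4 B cell genes (summed CPM 1.61 to 3.95 against 4.52 to 11.1) and 1 of 5 endothelial genes (129 to 182 against 155 to 174) were called lower, and 1 pancreas gene of the 1 tested (11.97 to 22.96 against 8.57 to 10.8) and 1 of 3 red cell genes (72.1 to 211 against 57.1 to 162) were called higher, and their part in the result was not tested. With the clock component as a covariate Idi1 (-2.60, adjusted p = 0.0466) and Fdps (-2.55, adjusted p = 0.0466) stayed called, where 0.152% of genes were called lower, and the other 5 did not, with estimates from -2.26 (Mvd) to -0.88 (Acat2). The covariate was computed from these 10 mice. Since the component over all 20 mice had no overlap between these diets, this fit cannot separate clock from diet.

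With salmon filet the drops against chow were smaller and Pmvk alone was called, at -0.75 (SE 0.187, adjusted p = 0.0414), where 2.32% of 16605 genes were called lower and 4.46% in either direction. With mouse 31 as beef it was at -0.67 (adjusted p = 0.0595) and 0 of 8 were called in edgeR, where 2.2% of genes were called lower, with 3 at an unadjusted p under 0.05. The call was lost without chow mouse 2, 5 or 7 or salmon filet mouse 22, 23, 25, 26 or 31 (highest adjusted p = 0.1001). The remaining estimates were from -0.91 (Idi1, adjusted p = 0.0915) to -0.18 (Ggps1), and 0 of 8 enzymes were free of overlap with chow-fed mice, beside 2.52% of genes lower without overlap.

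With beef Pmvk (-1.32, SE 0.197, adjusted p = 0.00869) and Idi1 (-1.55, SE 0.334, adjusted p = 0.0378) were called lower, where 217 of 16559 genes were called lower and 2.48% were called in either direction. The call of Idi1 was lost without chow mouse 2, 5 or 7 or beef mouse 35, 39 or 40 (highest adjusted p = 0.124). Both enzymes had no overlap with chow-fed mice, beside 4.24% of genes lower without overlap. With mouse 31 as beef Idi1 was at -1.30 (adjusted p = 0.0596), Acat2 (-0.67, adjusted p = 0.0463) and Pmvk were called, where 1.52% of genes were called lower, and Pmvk alone was without overlap, beside 3.1% of genes. All 3 diets share the chow-fed mice. The estimates for Mvd were -2.66 for fishmeal, -0.48 for salmon filet and -0.87 for beef, and those for Fdps were -2.72, -0.24 and -0.67.

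**Figure D2:**
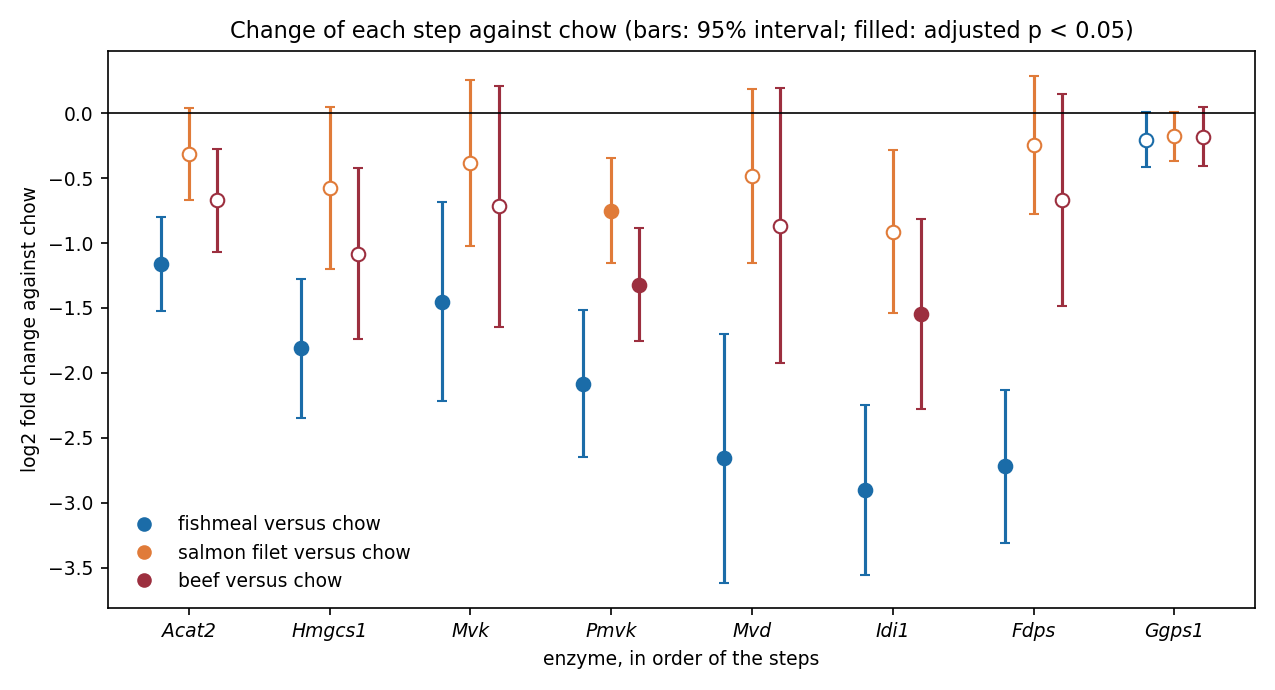
Log2 fold change against chow of each enzyme, in order of the steps, for fishmeal, salmon filet and beef, with 95% intervals from edgeR and filled points at an adjusted p under 0.05. The fishmeal points drop from -1.16 at Acat2 to -2.90 at Idi1, and all 3 diets lie between -0.18 and -0.20 at Ggps1.

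Whether the fishmeal diet differed from the other HFDs was asked within HFD-fed mice, where the chow-fed mice play no part. Against salmon filet and beef together (n = 10) the later enzymes were called lower with fishmeal (n = 5), namely Pmvk, Mvd, Idi1 and Fdps. These 4 of 8 stand where 26 of 16795 genes were called, 0.155%, and 0.143% were called lower. Pmvk, Idi1 and Fdps had no overlap, beside 0.208% of genes lower without overlap.

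Fdps led, at 2.99 ± 0.572 CPM with fishmeal (SD, n = 5) against 14.8 ± 5.13 (SD, n = 10), or -2.31 on the log2 scale (SE 0.266, adjusted p = 0.000535), 4.95 times lower. Mvd followed at -2.02 (SE 0.357, adjusted p = 0.0254), Idi1 at -1.76 (SE 0.284, adjusted p = 0.0105) and Pmvk at -1.11 (SE 0.215, adjusted p = 0.0449). The earlier enzymes had smaller estimates that did not pass in edgeR, -0.70 for Acat2 (adjusted p = 0.174), -1.04 for Hmgcs1 (adjusted p = 0.174) and -0.93 for Mvk (adjusted p = 0.14), and all 3 passed in DESeq2, which called 0.333% of genes lower, with adjusted p-values of 0.00348 to 0.0106. Ggps1 was at -0.01 (95% interval -0.19 to 0.16), and 0 of 17 clock genes were called in edgeR, with 0 at an unadjusted p under 0.05. With the clock component as a covariate the 4 calls were kept, where 0.167% of genes were called lower, with Fdps at -2.31 and Idi1 at -1.75 (both adjusted p = 6.136e-05). Without fishmeal mouse 14 Fdps alone was called, and leaving out fishmeal mouse 13, 16 or 20 or salmon filet mouse 27 left 2 calls. Mvd lost its call without mouse 13, 14, 16, 20 or 27 (highest adjusted p = 0.0988), and Pmvk lost it without 11 of the 15 mice (highest adjusted p = 0.186).

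Against salmon filet alone 5 enzymes were called lower with fishmeal, where 0.151% of 16548 genes were called lower and 0.157% in either direction, and 7 of 8 had no overlap, beside 0.471%, also with mouse 31 as beef, beside 0.695%. The log2 fold changes were -2.46 for Fdps, -2.15 for Mvd, -1.97 for Idi1, -1.313 for Pmvk and -1.05 for Mvk. Pmvk lost its call without fishmeal mouse 13, 16 or 20 or salmon filet mouse 22, 25, 26 or 27 (highest adjusted p = 0.0834). With mouse 31 as beef Acat2 was called as well (-0.91, adjusted p = 0.0433), where 0.17% of genes were called lower.

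Against beef 0 of 8 enzymes were called in edgeR, where 1 of 16480 genes was called (0.00607%), although 7 had an unadjusted p under 0.05 and DESeq2 called 2, with 0.14% of genes called lower. Fdps was at -2.06 (95% interval -2.73 to -1.38, adjusted p = 0.127), and with mouse 31 as beef at -2.14 (adjusted p = 0.0375), where 0.0184% of genes were called lower. Pmvk, Idi1 and Fdps had no overlap, beside 0.619% of genes lower without overlap, also with mouse 31 as beef, beside 0.413%.

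Between salmon filet and beef 0 of 8 enzymes were called in edgeR, with 2 at an unadjusted p under 0.05, where 0 of 16509 genes (0.0%) were called. No enzyme was free of overlap, beside 0.6% of genes. Pmvk had the smallest p, at 0.56 higher with salmon filet (95% interval 0.25 to 0.88, unadjusted p = 0.00208, adjusted p = 1.0), and with mouse 31 as beef at 0.63 (95% interval 0.40 to 0.86, adjusted p = 0.461) and without overlap, beside 1.05% of genes. Idi1 was at 0.63 higher (95% interval 0.01 to 1.24). With mouse 31 as salmon filet, DESeq2 called 0 of the 8 enzymes and 0.0121% of genes, and it was not run with mouse 31 as beef. By contrast the paper, which used DESeq2 on groups of equal size, reports Pmvk among the few genes higher with salmon filet than with beef.

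How the size of the drop changed from step to step was tested on the ratio of later to earlier enzyme in each mouse, by exact two-sided permutation over mice with adjustment over the 28 pairs. These ratios do not depend on the scaling of libraries. In fishmeal against salmon filet and beef 20 of 28 pairs differed in their change (13 of them without Ggps1), and 3 of 7 neighbouring pairs did, over 3003 splits with a smallest possible p of 0.000333.

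From Acat2 to Pmvk no neighbouring pair passed. Hmgcs1 relative to Acat2 shifted by -0.27 (SE 0.249, adjusted p = 0.35), Mvk relative to Hmgcs1 by 0.04 (SE 0.279, adjusted p = 0.89) and Pmvk relative to Mvk by -0.23 (SE 0.232, adjusted p = 0.35). The largest step down came next. The log2 ratio of Mvd to Pmvk was -2.17 ± 0.36 (SD, n = 5) with fishmeal and -1.26 ± 0.501 (SD, n = 10) with salmon filet and beef, a shift of -0.91 (SE 0.226, adjusted p = 0.00466 by the exact permutation test). The step from Mvd to Idi1 shifted by 0.36 (SE 0.308, adjusted p = 0.345).

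The last step to farnesyl diphosphate changed its call with the counts of pseudogenes. As counted, Fdps relative to Idi1 shifted by -0.52 (SE 0.148, adjusted p = 0.00984 by the exact permutation test). With the counts of the pseudogenes added it shifted by -0.34 (SE 0.226, adjusted p = 0.153), and on log2(TPM + 1) by -0.11 (adjusted p = 0.562), a scale that shrinks differences at the low TPM of Fdps. On log2 TPM with no pseudocount it shifted by -0.53 (adjusted p = 0.00874 by the exact permutation test). No similar gene was found for Pmvk and Mvd, so no counts were added to them. Past the branch point Ggps1 rose relative to Fdps by 2.21 (SE 0.226, adjusted p = 0.00187 by the exact permutation test), and by 1.88 (adjusted p = 0.00233) with the pseudogenes added.

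In HFD against chow 7 of 28 pairs differed in their change and 1 of 7 neighbouring pairs did, over 15504 splits. Here Fdps fell less than Idi1, with a shift of 0.57 (SE 0.116, adjusted p = 0.0241 by the exact permutation test), which was 0.37 (adjusted p = 0.147) with the pseudogenes added. Idi1 also fell more than Acat2 (-1.01, adjusted p = 0.0241) and than Mvk (-1.03, adjusted p = 0.0241), and Pmvk more than Acat2 (-0.64, adjusted p = 0.0108), all by the exact permutation test. The 7 pairs fell to 0 without chow mouse 2 or chow mouse 7 and to 2 without chow mouse 5. With fishmeal alone against chow 15 of 28 pairs passed and Ggps1 relative to Fdps, at 2.42 (adjusted p = 0.0185 by the exact permutation test), was the single neighbouring pair. There Mvd relative to Pmvk shifted by -0.51 (adjusted p = 0.231).

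**Figure D3:**
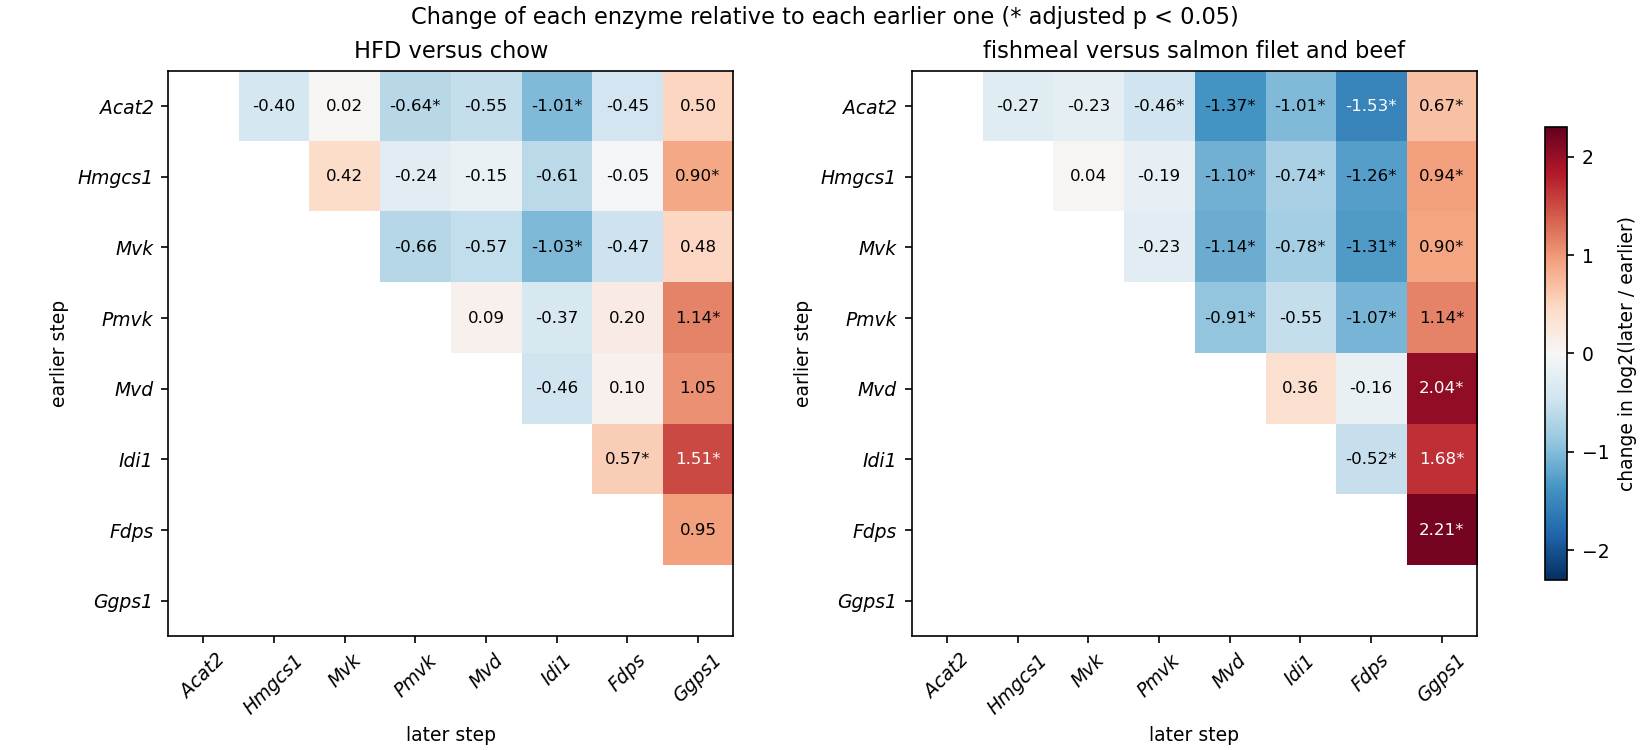
Change in the log2 ratio of each later enzyme (columns) to each earlier one (rows) in HFD against chow (left) and fishmeal against salmon filet and beef (right), with asterisks at an adjusted p under 0.05 over 28 pairs. On the right, Mvd, Idi1 and Fdps fell more than Acat2, Hmgcs1 and Mvk (-1.53 to -0.74) and Ggps1 fell less than every other enzyme.

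The enzymes also varied together between mice of one diet. Over the 20 mice, as deviations of log2 CPM from the mean of the diet, 3 of 7 neighbouring pairs were correlated after adjustment over the 7, by permutation within diets. Idi1 and Fdps were closest (Pearson's r = 0.873, Spearman's rho = 0.839, permutation p = 6e-05 and 0.00015, adjusted 0.00042 and 0.00105), with r = 0.869 without the 2 mice farthest out on Idi1. Pmvk and Mvd had r = 0.697 and rho = 0.708 (adjusted permutation p = 0.00714 and 0.00854), and r = 0.552 without the 2 farthest. Mvd and Idi1 had r = 0.667 and rho = 0.633 (adjusted permutation p = 0.00758 and 0.0176), and r = 0.676 without the 2 farthest. Fdps and Ggps1 had r = 0.0265 and rho = 0.00902 (permutation p = 0.915 and 0.972). With the pseudogenes added Idi1 and Fdps had r = 0.767, and with mouse 31 as beef r = 0.886, with 3 of 7 pairs passing in both. By rho, the number of pairs passing was 2 without chow mouse 5 or salmon filet mouse 26, 4 without fishmeal mouse 13 and 5 without fishmeal mouse 16. All values of a mouse come from 1 library and share its depth and scaling.

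**Figure D4:**
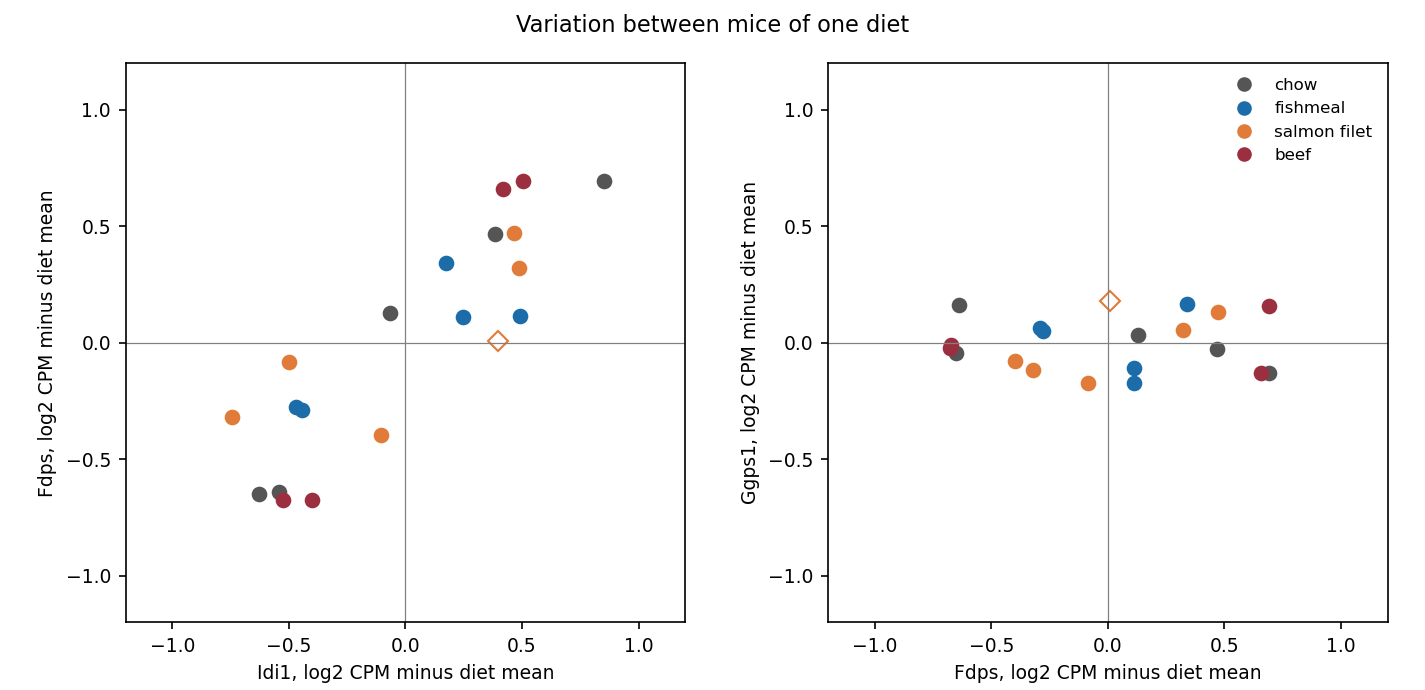
Log2 CPM minus the mean of the diet for Fdps against Idi1 (left) and Ggps1 against Fdps (right), 1 point per mouse (n = 20) coloured by diet, with mouse 31 as an open diamond. Mice high in Idi1 were high in Fdps (r = 0.873), and Ggps1 stayed within a narrow band whatever the level of Fdps (r = 0.0265).

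As a single level, the mean log2 CPM of the 7 enzymes from Acat2 to Fdps relative to the chow mean was -1.64, -1.84, -2.504, -2.02 and -2.21 in the fishmeal mice, -0.82 to -0.11 in the salmon filet mice and -0.80, -0.41, -1.346 and -1.24 in the beef mice. Chow-fed mice themselves ran from -0.61 to 0.66. Here, by label, 5 of 6 salmon filet mice and 1 of 4 beef mice lay within the range of chow, and the fishmeal mice lay below all others. Mouse 31, at -0.55, was among those within the range of chow and would count with the beef mice if taken as beef. Among 11558 other protein coding genes with a mean of at least 1 CPM, those whose log2 CPM over the 20 mice was most like the standardised mean of the 7 were Lss (r = 0.978), Fdft1 (r = 0.976), Msmo1 (r = 0.971), Nsdhl (r = 0.969) and Cyp51 (r = 0.968). Ggps1 had r = 0.257 with the same mean, and the 7 had r = 0.815 (Mvk) to 0.96 (Idi1) with the mean of the remaining 6, as a description over libraries that share the diets.

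The later enzymes of the pathway, from squalene to cholesterol, share the same route. Of 12 listed, 8 were called lower in HFD against chow, 11 in fishmeal against chow and 8 in fishmeal against salmon filet and beef, and 0 higher in any of these, with medians of -0.86, -1.79 and -1.17. Over all genes tested, 5.21%, 1.93% and 0.143% were called lower in the same order. The medians of the 8 mevalonate arm enzymes were -0.94, -1.95 and -1.08 in the same comparisons. With the clock component as a covariate 0 of the 12 were called in HFD against chow in edgeR, where 6 had an unadjusted p under 0.05, while 4 were called in fishmeal against chow and 8 in fishmeal against salmon filet and beef. With this covariate 0.812%, 0.152% and 0.167% of genes were called lower in the same order. Sqle, which oxidises squalene, had the largest estimates, at -1.68 (adjusted p = 0.022), -3.68 (adjusted p = 0.000252) and -2.46 (adjusted p = 0.00144), and Lbr, a sterol reductase, had the smallest called change in HFD against chow (-0.49, adjusted p = 0.00484). The next 2 genes were chosen after their values were seen. Fdft1, which takes farnesyl diphosphate into sterols, was called in all 3, at -1.004, -1.84 and -1.12, next to Ggps1 at -0.19, -0.20 and -0.01 on the other branch. Ebp, a sterol isomerase, was called in none of the 3 (-0.14, -0.25 and -0.16).

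**Figure D5:**
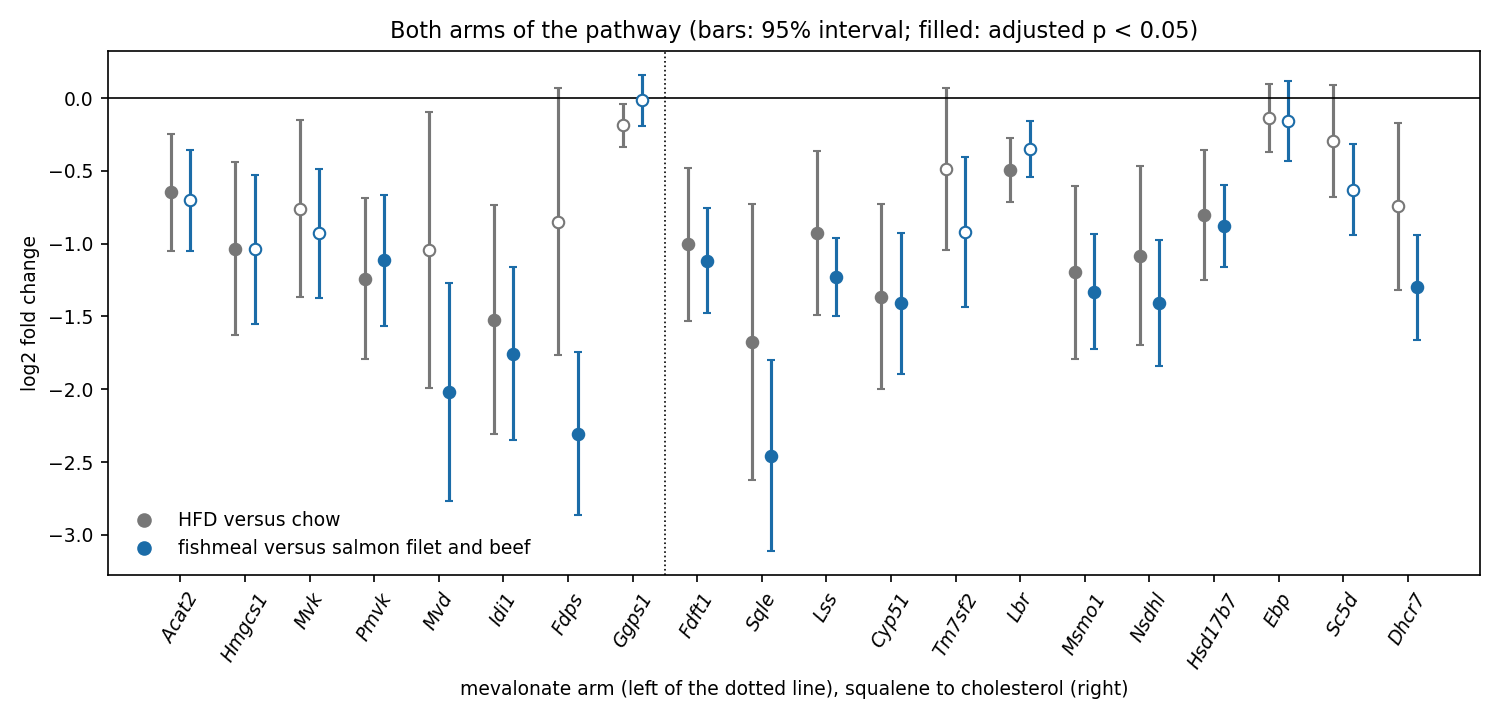
Log2 fold changes with 95% intervals for the 8 mevalonate arm enzymes (left of the dotted line) and 12 enzymes from squalene to cholesterol (right), in HFD against chow and in fishmeal against salmon filet and beef, with filled points at an adjusted p under 0.05. Fdps (-2.31) and Sqle (-2.46) are lowest in the comparison within HFD-fed mice, and Ggps1 (-0.01) lies at 0.

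Enzymes that supply cytosolic acetyl-CoA or acetoacetyl-CoA (Acly, Acss2, Slc25a1 and Aacs) were called in 1 of 4. That was Acss2, which activates acetate, at -1.29 in HFD against chow (SE 0.349, adjusted p = 0.0206), -2.42 in fishmeal against chow (SE 0.293, adjusted p = 0.000938) and -1.46 in fishmeal against salmon filet and beef (SE 0.277, adjusted p = 0.0397). With the clock component as a covariate 0 of the 4 were called in HFD against chow and 0 in fishmeal against chow in edgeR, although 1 and 2 of them had an unadjusted p under 0.05, while 1 of the 4 was called in fishmeal against salmon filet and beef. Acly (-0.20, -0.74 and -0.73), Slc25a1 (-0.26, -0.50 and -0.33) and Aacs (-0.63, -1.32 and -0.93) were not called. Of 3 counterparts of the first and isomerising steps, 2 were tested and 0 called in edgeR in all 3 comparisons, with 1, 1 and 0 at an unadjusted p under 0.05. Acat1, the mitochondrial thiolase, was at 0.46 (adjusted p = 0.0609), 0.61 (adjusted p = 0.0575) and 0.24, with the opposite sign to Acat2. Acat3 was at -0.16, -0.21 and -0.06, and Idi2 had 0 counts in every library.

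A list of 16 genes covers uses of farnesyl and geranylgeranyl diphosphate outside sterols, including genes that assist prenylation or act after it. It gave 4 calls in HFD against chow, where 9.75% of genes were called. Chml (-0.56), Rce1 (-0.45) and Rabggtb (-0.28) were lower and Rabggta (0.33) higher. All 4 belong to protein prenylation or the processing of prenylated proteins, and Rce1 and Rabggta were named after their values were seen. With the clock component as a covariate 0 of 16 were called in edgeR, where 1.73% of genes were called, although 2 had an unadjusted p under 0.05. In fishmeal against chow and in fishmeal against salmon filet and beef 0 of 16 were called in edgeR, with 4 and 0 at an unadjusted p under 0.05. Of the 6 genes of SREBP-2 control, 0 were called in edgeR in any of the 3 comparisons, with 0, 2 and 2 at an unadjusted p under 0.05. Of these, 2 are given here after their values were seen. Srebf2, which encodes SREBP-2, was at -0.28, -0.68 (adjusted p = 0.122) and -0.55 (adjusted p = 0.353), and Insig1, which holds SREBP-2 back, at -0.12, -0.76 (adjusted p = 0.133) and -0.87 (adjusted p = 0.14).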

How the data were processed

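Liver RNA of 20 mice was sequenced with stranded mRNA libraries. Reads were trimmed (BBDuk), aligned (HISAT2 1.2.1 in the submitters' processing notes) and assigned to genes (featureCounts 1.4.6-p1). The authors deposited raw counts and, in a second table, TPM. The notes and the paper print GRCh38 for these mouse data; the identifiers are of mouse genes, and positions here are on GRCm38 (GENCODE M21). How reads that fit several genes were counted is not given in the sources used here. The depth of 42526234 to 70266136 reads on genes per library gave Fdps, the member with the fewest reads, 108 to 1693 counts. Mice are separate animals, and 41 pairs of libraries within diets had a chi-square per degree of freedom of 31.9 to 414.

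From the counts, edgeR 4.0 in R 4.3 was run with TMM, filterByExpr (minimum count 10) and the quasi-likelihood F-test, fitted on the groups compared, and adjusted over all genes tested. Ratios of 2 members used log2(count + 2) and exact permutation, and correlations 100000 permutations within diets. Alternatives were DESeq2 1.42, other scalings, no filter, limma 3.58 on log2(TPM + 1) where TPM averaged 0.5 or more, a clock covariate, all 4 groups in one fit, each library left out, mouse 31 as beef or left out and, added after seeing the data, ratios of TPM with no pseudocount and counts of pseudogene copies (blastn 2.17, at least 95% identity over at least 500 bases). The clock covariate was computed from the clock genes in the mice compared. Scripts were tested on simulated data. Members and gene lists were chosen with earlier results of these data known. Named genes are all 8 members, the 5 genes most like the 7 up to Fdps, and of other lists the called genes with the largest and smallest change in HFD against chow, or every gene in lists of 5 or fewer. Genes outside this rule are marked in the text. Results on some genes of the pathway and of the lists are not reported here.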

Additional observations from a re-analysis of the deposited data

Results flagged for a closer look

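Differences between diets in the change against chow were tested as fishmeal against salmon filet, since the chow-fed mice are shared. By edgeR's quasi-likelihood test with Benjamini-Hochberg adjustment, 5 of the 8 enzymes differed, where 0.157% of genes were called. This is the fit already given above for fishmeal against salmon filet, and no further test. On the log2 scale the differences were -2.46 for Fdps (adjusted p = 5.1e-05), -2.15 for Mvd (adjusted p = 0.00742), -1.97 for Idi1 (adjusted p = 0.00495), -1.313 for Pmvk (adjusted p = 0.0257) and -1.05 for Mvk (adjusted p = 0.0138). With mouse 31 as beef all 5 stayed called, at -2.48, -2.25, -1.92, -1.41 and -1.12, where 0.17% of genes were called lower. In each of the 5 enzymes the 5 fishmeal mice lay below the 6 salmon filet mice, beside 0.471% of genes lower without overlap.

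No mouse stood apart from the others of its diet by Dixon's test in any of the 32 sets of values (8 enzymes in 4 diets), where chance marks about 1 in 20.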

How the results depend on the processing

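Of 1352 log2 fold changes recomputed for the 8 enzymes, 1217 kept their direction and side of the threshold, 75 lost and 36 gained a call, and 24 changed sign. In HFD against chow 4 calls became 7 with all 4 groups in one fit (5.4% of genes called lower) and 0 with the clock covariate (0.812% of genes called lower), and 1 to 4 with a library left out. In fishmeal against chow 7 became 2 with the clock covariate (0.152% of genes called lower), and 6 to 7 with a library left out. In salmon filet against chow 1 became 2 in DESeq2 (4.5% of genes called lower) and 0 with limma, the clock covariate, mouse 31 as beef or mouse 31 left out, and 0 to 1 with a library left out. In beef against chow 2 became 4 in DESeq2 (3.21% of genes called lower) and with all 4 groups in one fit (2.24%) and 0 with the clock covariate, where 0 of 16559 genes were called, and 1 to 3 with a library left out. In fishmeal against salmon filet and beef 4 became 7 in DESeq2, and 1 to 5 with a library left out. In fishmeal against beef 0 became 2 in DESeq2, without the filter (0.0315% of genes called lower) and with the clock covariate (0.0485%), 1 with all 4 groups in one fit and with mouse 31 as beef, and 0 to 1 with a library left out. By label, the clock component over all mice had no overlap between chow-fed mice and fishmeal or beef mice. Those fits, made by label, cannot separate clock from diet. With mouse 31 (3.79, within the chow range of 2.33 to 5.503) as beef, beef would overlap chow and salmon filet would not. In HFD against chow mouse 31 alone reached into the chow range, so that fit can hardly separate clock from diet. The cause was not tested.

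Without chow mouse 5, Mvk in salmon filet against chow was at 0.012 (range with a library left out -0.59 to 0.012). With the clock covariate, beef against chow gave 0.043 for Fdps and 0.095 for Ggps1. For Ggps1, fishmeal against salmon filet gave 0.011 with mouse 31 as beef or left out and 0.0091 with the clock covariate (-0.054 to 0.023 with a library left out), fishmeal against beef 0.016 with limma (-0.069 to 0.028), fishmeal against salmon filet and beef -0.058 to 0.026 with a library left out, and salmon filet against beef 0.000482 with upper quartile scaling and 0.072 with limma (-0.055 to 0.045).

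Of the 28 pairs, 7 differed in HFD against chow, 15 with fishmeal alone against chow and 0 to 9 with a library left out, and 5 with pseudogene counts added. In fishmeal against salmon filet and beef the 20 were 19 on log2(TPM + 1), 20 on log2 TPM with no pseudocount (added after seeing the data), 18 with pseudogene counts added and 18 to 20 with a library left out. Mvd relative to Pmvk was at -0.51 with fishmeal alone against chow. With all HFD-fed mice against chow it ran from -0.13 to 0.35 with a library left out. Mvk relative to Hmgcs1 in fishmeal against salmon filet and beef ran from -0.089 to 0.15 with a library left out. With a library left out, 3 neighbouring pairs varied together by Pearson's r and 2 to 5 by Spearman's rho, and on log2(TPM + 1) 3 and 2. No paired analysis was possible because mice carry their own numbers and replicate numbers here only name samples.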
